A study of Homo sapiens with 4 samples.

Results

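Silencing of *GRB2* by siRNA was set directly against transfection of Pre-miR-376c in HuCCT1 cells, a human intrahepatic cholangiocarcinoma cell line. The comparison used 2 of the 4 samples of the series, the siGRB2 array and the miR-376c array, and covered 13961 of the 19483 genes named on the array. These were the genes with at least 1 probe well above background on both arrays. Cells were transfected with 30 nM siGRB2 or 30 nM Pre-miR-376c, and after 24 h EGF was added at 5 ng/ml for 24 h in medium with little serum. The other 2 samples, an siRNA negative control (siControl) and a Pre-miR negative control (miControl), had the same dose and the same EGF, so no array came from cells without EGF or without transfection. The labels name the siRNA siGRB2 and the paper names it siGRB2-2. All 4 arrays lay on 1 slide. Each condition had 1 array, so no p-value and no SD of a condition could be given, and a difference between the 2 treatments cannot be told apart from a difference between 2 cultures or between an siRNA and a microRNA precursor as transfected molecules.

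GRB2 is an adaptor protein. It binds phosphorylated EGFR or SHC1 through its SH2 domain and carries the exchange factor SOS to the membrane, where RAS is loaded with GTP and the RAF, MEK and ERK kinases follow. A microRNA pairs through its seed, the bases near its 5′ end, with many transcripts, so a precursor of *miR-376c* can lower GRB2 together with other targets, whereas an siRNA is designed against a single transcript. The question of the comparison was what silencing of 1 target did not share with the microRNA.

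The mature sequence of the microRNA is shown with its closest relatives because the seed sets which transcripts a precursor can pair with. The sequences are those of RefSeq (GRCh38.p14, plus strand), 5′ to 3′, with the seed (bases 2 to 8) in capitals. All 3 lie in 1 cluster on chromosome 14, *miR-376c-3p* at chr14:101039732-101039752, *miR-376a-3p* at chr14:101040118-101040138 and chr14:101040825-101040845, and *miR-376b-3p* at chr14:101040497-101040518.
hsa-miR-376c-3p: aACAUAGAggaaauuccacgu
hsa-miR-376a-3p: aUCAUAGAggaaaauccacgu
hsa-miR-376b-3p: aUCAUAGAggaaaauccauguu
Counted from 1 at the 5′ end and read from *miR-376c-3p* to each relative, the seed differed by A2U in both. The seeds of *miR-376a-3p* and *miR-376b-3p* were the same. Outside the seed, U14A separated *miR-376c-3p* from both relatives and C19U from *miR-376b-3p* alone.

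Each level is a log2 signal from which the array's own 75th percentile was subtracted, so a level of 0 is the signal at that percentile. Differences are siGRB2 minus miR-376c on this log2 scale, positive where the siGRB2 array was higher. Of 34127 probes, 22078 were well above background on both arrays, and 20599 of these (93.3%) lay within 1.5-fold of each other. A difference of at least 2-fold was seen for 297 probes, 198 higher with siGRB2 (0.897% of probes measured) and 99 lower (0.448%). With 1 median value per gene, 100 genes were at least 2-fold higher (0.716%) and 48 at least 2-fold lower (0.344%). At 1.5-fold, 626 genes were higher (4.48%) and 258 lower (1.85%). These shares are the background against which the lists below are read.

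**Figure D1:**
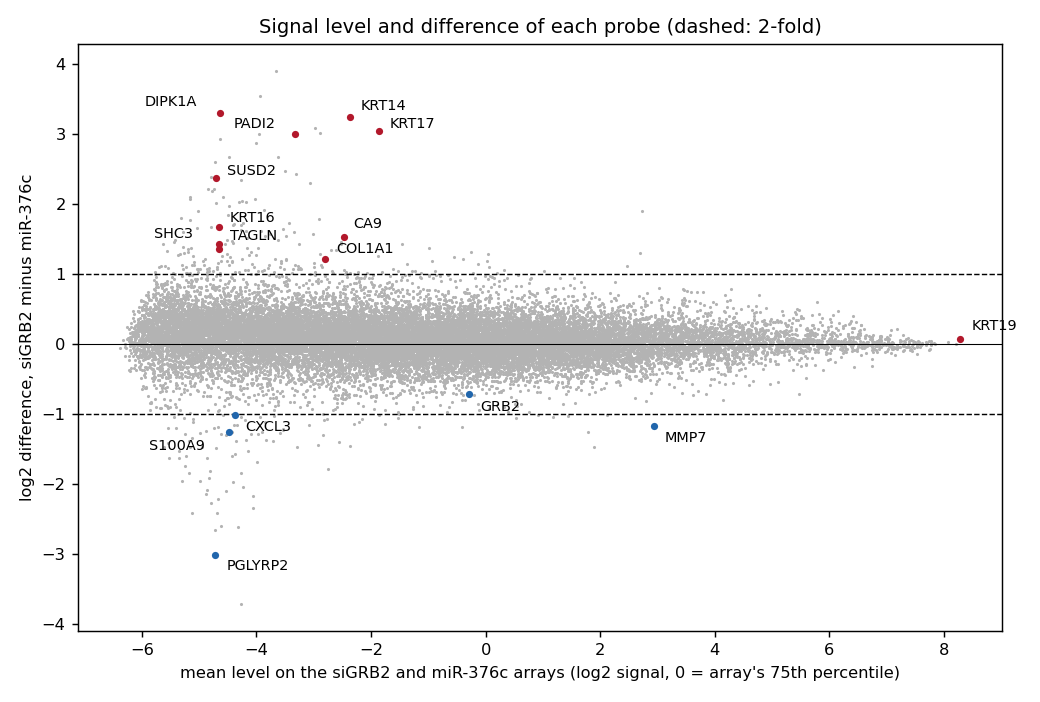
Mean level of each of the 22078 probes on the siGRB2 and miR-376c arrays (log2 signal, 0 is the array's 75th percentile) against its log2 difference, siGRB2 minus miR-376c, with dashed lines at 2-fold and named genes marked at their probe with the larger difference. The spread narrowed as signal grew, *KRT14* and *KRT17* stood above 3, and *MMP7* was 1 of few bright probes past 2-fold.

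Most of the large differences were in dim probes. Probes were divided by signal into 4 groups of equal size. The dimmest group held 122 of the probes at least 2-fold higher and 70 of those at least 2-fold lower, and the brightest group held 4 and 7. The SD of the differences was 0.43 in the dimmest group and 0.23 in the brightest. Differences leaned towards siGRB2 in dim probes, with a median of 0.15 in the dimmest group and 0.02 in the brightest, and over all genes the median was 0.06 with 59.2% of genes above 0. That lean depended on scaling. Scaling to the median in place of the 75th percentile moved the median of all genes by -0.13 and turned the split of genes past 1.5-fold from 626 higher and 258 lower to 355 and 542. Quantile normalization gave 422 and 406. The 7 spike-in probes measured on both arrays, RNA added by the labelling protocol, were 0.48 to 0.60 higher on the siGRB2 array, and a scale set by them would move every gene by -0.55. The median of each list is therefore given beside the median of all genes. The counts past 1.5-fold and above 0 move with such a shift.

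The spread that 1 array a side allows was taken from probes of the same gene. Over 3340 genes with at least 2 probes measured, the pooled SD between probes of a gene was 0.21 in log2 difference, and the error that the scanner software gives for a log2 difference had a median of 0.20. All probes of a gene passed 1.5-fold in the same direction in 48 genes higher with siGRB2 (1.44% of those 3340) and 14 lower (0.419%). All probes passed 2-fold in 5 genes, *SUSD2*, *TAGLN*, *SHC3*, *MAP1B* and *PXDN*, each higher with siGRB2, and in 0 genes that were lower. With another background correction (normexp, in which 50 is added to each signal) followed by quantile normalization, the gene value was 1.19 for *SUSD2*. It was 0.54 for *PXDN*, 0.44 for *MAP1B*, 0.39 for *TAGLN* and 0.25 for *SHC3*, so of the 5 only *SUSD2* stayed past 2-fold under this setting. The setting was sensitive to 7 spots of very high local background on the siGRB2 array. With them, 62 genes were at least 1.5-fold higher and 32 lower, and without them 256 and 176. Values given below under this setting carry that limit. Of the 761 probes printed as 10 spots and measured on both arrays, 2 passed 2-fold, *ZMAT3* and *AKAP12*, both at 1.07.

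GRB2 itself was lower on the siGRB2 array. Its single probe had a level of -0.65 with siGRB2 and 0.07 with miR-376c, against -0.10 with siControl and 0.62 with miControl. The siGRB2 array was the lowest of the 4, the miR-376c array lay between the controls, and the difference was -0.72, a 1.65-fold lower level, with a scanner error of 0.20. With normexp and quantile normalization the difference was -0.45, short of 1.5-fold, and when 7 spots of very high local background on the siGRB2 array were also left out it was -0.74. The transcript of the shared target was thus lower on the siGRB2 array than on the miR-376c array. The siControl array was below the miControl array by a similar amount. Whether the siRNA lowered GRB2 more than the precursor did, each against its own control, cannot be read from this difference.

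The rest of the adaptor and receptor layer differed little. Of 28 measured genes of the list of GRB2 and adaptor partners, 2 were at least 1.5-fold higher and the median was 0.12. The 1 that was lower by as much was *GRB2* itself. The gene with the highest value was *SHC3*, an adaptor of the SHC family found mainly in neurons. Its brighter probe was at -3.97 with siGRB2 and -5.32 with miR-376c, and the other at -4.75 and -5.82, differences of 1.35 and 1.07. Levels with siControl were -4.24 and -5.32 and with miControl -5.07 and -5.36, so both probes were highest on the siGRB2 array and lowest on the miR-376c array. *CBLB*, a ubiquitin ligase that takes activated receptors out of signalling, was 0.67 higher over 2 probes. *SHC1*, the widely expressed family member, was 0.44 higher.

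Among ERBB receptors and the proteins that restrain them, 0 of 13 genes were at least 1.5-fold higher and 1 was lower. The 3 probes of *EGFR* differed by 0.18, -0.09 and -0.28, in order from dim to bright, and *ERBB2* by 0.15. All of these lay within the spread between probes or close to it. The lowest was *LRIG3* at -0.59, from -2.23 with siGRB2 and -1.64 with miR-376c, a membrane protein of a family that includes negative regulators of ERBB receptors.

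Of 14 measured EGF-family ligands and sheddases, the pair *AREG* and *EREG* was lower with siGRB2. *AREG*, which encodes the EGFR ligand amphiregulin, had levels of 4.84 with siGRB2, 5.38 with miR-376c, 5.75 with siControl and 5.18 with miControl on its brighter probe. Its median difference over 2 probes was -0.61. *EREG*, the ligand epiregulin, was at 1.10, 1.71, 2.45 and 1.70 on the same arrays, a difference of -0.60. Both ligands were lowest on the siGRB2 array of the 4. *HBEGF* stood at 0.29 and *RHBDF1*, an inactive rhomboid that steers ligand shedding, at 0.33, the highest of the list.

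No gene of RAS, RAF, MEK and ERK passed 1.5-fold among 21 measured, with values from -0.40 for the ERK-activated kinase gene *RPS6KA3* to 0.57 for *RRAS*. PI3K and AKT had 1 gene of 24 past the limit, *SGK1*, a kinase related to AKT, at 0.85. JNK and p38 kinases had 0 of 17, with *MAPKAPK2*, a kinase below p38, the highest at 0.47 and *MAP3K4* the lowest at -0.28.

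The genes that ERK signalling switches on or uses as feedback had a median above that of all genes, with members on both sides. Of 32 measured, 20 were above the median of all genes, 4 were at least 1.5-fold higher and 1 was lower. The list median was 0.14 against 0.06 for all genes. It stayed above the median of all genes under the 13 alternatives run for lists. *JUNB* had a level of -1.55 with siGRB2 and -2.41 with miR-376c, a difference of 0.86, and *DUSP5*, a phosphatase that acts on ERK, had levels of 0.55 and 1.24, a difference of -0.69. *JUN* differed by 0.07 and *FOS* by -0.10, less than the spread between probes. Among other early genes *EGR1* was at -0.47, *MYC* at -0.36 and *JUND* at 0.72. *ETV5* at 0.67 and *IER3* at 0.60 over 2 probes also passed 1.5-fold.

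Of the 14 genes in the EGFR network drawn by the study, a list chosen on these samples, 12 were on the array and 8 were measured on both arrays. *IL1B*, which encodes interleukin-1 beta, was at -1.21 with siGRB2 and -1.70 with miR-376c, both below -0.04 with siControl and -0.29 with miControl. *MMP9*, a gelatinase, was at -3.36 and -3.49, again both below the controls at -2.05 and -2.32. The 2 treatments differed by 0.49 for *IL1B* and 0.14 for *MMP9*. *XDH* differed by -0.02, *GATA4* by 0.17, *ASGR1* by 0.39 and *QKI* by 0.46, where 2 probes of *QKI* were near 0.5 and the dim one was -0.48. Of the 8, *GRB2* alone passed 1.5-fold, and with normexp and quantile normalization it did not (-0.45).

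**Figure D2:**
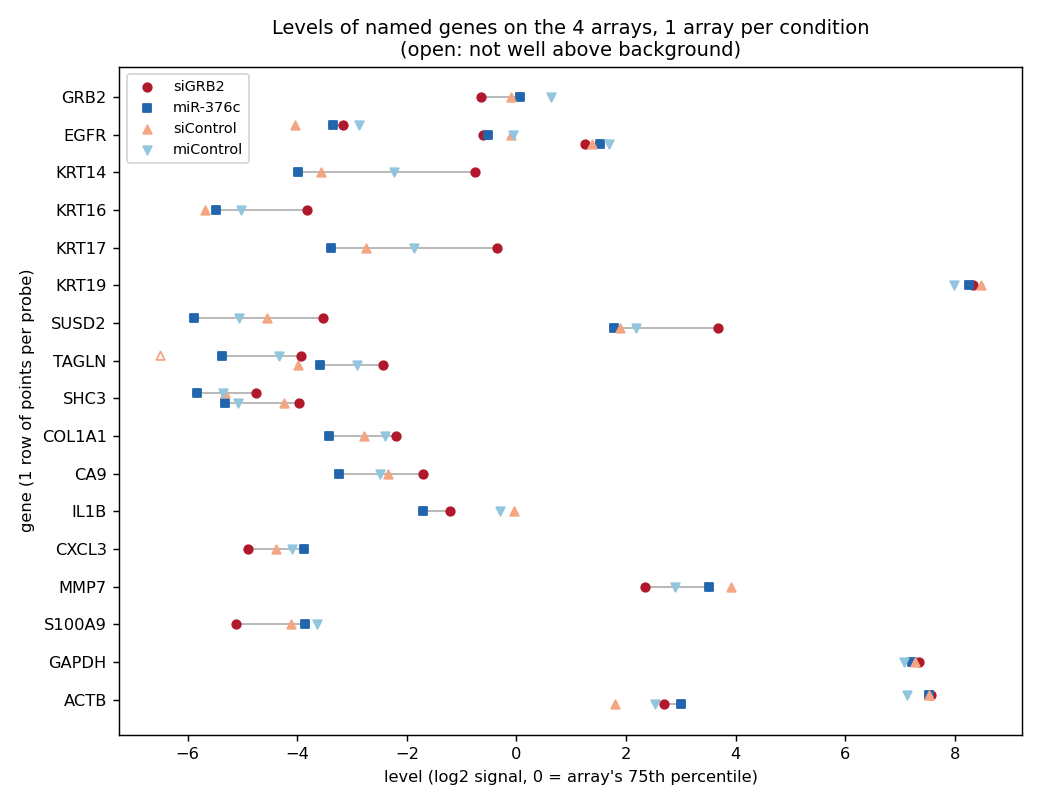
Levels (log2 signal, 0 is the array's 75th percentile) of 17 named genes on the siGRB2, miR-376c, siControl and miControl arrays, 1 row of points per probe, with a line joining the siGRB2 and miR-376c points and open symbols where a probe was not well above background. *KRT14*, *KRT16* and *KRT17* lay furthest right on the siGRB2 array, *MMP7*, *CXCL3* and *S100A9* furthest left on it, and *GAPDH* and *KRT19* changed place by little. Distances along a row can be compared, levels of different probes cannot.

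Several of the largest differences were in type I keratins of stratified epithelium. Keratins are paired filament proteins. *KRT7*, *KRT8*, *KRT18* and *KRT19* are those of bile duct and other simple epithelia, *KRT14* marks basal cells of layered epithelia, and *KRT16* and *KRT17* are known for appearing after injury. *KRT14* was at -0.75 with siGRB2 and -3.99 with miR-376c, with -3.57 for siControl and -2.23 for miControl. *KRT17* was at -0.35 and -3.38, with -2.74 and -1.87. *KRT16* was at -3.82 and -5.49, with -5.69 and -5.03. In each of the 3 the siGRB2 array was above the other 3 arrays, and the differences were 3.24 (9.43-fold) for *KRT14*, 3.03 (8.19-fold) for *KRT17* and 1.67 (3.18-fold) for *KRT16*. The pseudogene *KRT16P2* followed at 2.47.

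These transcripts are nearly identical in parts, so a probe for 1 of them may also take up others, and the 4 values are not separate measurements. Each rested on 1 probe. With normexp background correction followed by quantile normalization, the difference was 1.39 for *KRT14*, 1.42 for *KRT17* and 0.44 for *KRT16*, the last no longer past 1.5-fold. Without the 7 spots of very high local background, the same setting gave 2.55, 2.53 and 0.86.

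The keratins of simple epithelium differed by less than the spread between probes. *KRT19* was at 8.32 with siGRB2 and 8.25 with miR-376c. *KRT7* differed by 0.03, *KRT8* by -0.07 on its brighter probe and *KRT18* by -0.10 on both of its probes. Of 28 keratins measured, 5 were at least 1.5-fold higher (*KRT14*, *KRT17*, *KRT16*, and the hair keratins *KRT33B* at 0.90 and *KRT32* at 0.82) and 1 lower, *KRT9* at -0.95, and the median was 0.19. In the RefSeq order of chromosome 17 (GRCh38.p14) *KRT14*, *KRT16* and *KRT17* stand side by side between *KRT9* at -0.95 and *EIF1* at 0.08, with *KRT19* at 0.07 beside *KRT9*.

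Lists of cell shape and of the matrix around the cell had medians above that of all genes. *TAGLN*, the actin-binding protein transgelin, was at -2.43 with siGRB2, -3.58 with miR-376c, -3.99 with siControl and -2.91 with miControl on its brighter probe. Its median difference over 2 probes was 1.29, or 0.39 with normexp and quantile normalization. *TAGLN* was the only gene past 1.5-fold among 11 measured genes of mesenchymal transition. *VIM*, the filament protein vimentin, stood at -0.03, and the transcription factors *SNAI1* and *SNAI2* at 0.16 and -0.20.

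Of 40 genes of the actin cytoskeleton and its regulators, 25 were above the median of all genes, 4 were at least 1.5-fold higher and 0 were lower, with a median of 0.17. With normexp and quantile normalization 1 was at least 1.5-fold higher. The highest was *RND1*, which loosens actin bundles, at 0.86, from -2.88 with siGRB2 and -3.74 with miR-376c. *MYL9*, the light chain of contractile myosin, stood at 0.78, and *MSN*, which ties actin to the membrane, was at 4.06 and 3.32, a difference of 0.74. *MYH9*, the heavy chain of non-muscle myosin, was 0.60 over 2 probes that gave 0.78 and 0.41. *ACTB* showed no such lean, with 0.04 on its brighter probe and -0.31 on the other, and *CFL2* was the lowest at -0.44. Among integrins and focal adhesion genes, 1 of 27 passed 1.5-fold, *ZYX*, a protein of adhesion sites under tension, at 0.76.

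The list of extracellular matrix and basement membrane held 9 of 36 genes at least 1.5-fold higher and 0 lower, where the share over all genes was 4.48%. Its median was 0.16, and 22 genes were above the median of all genes. The count of 9 became 4 with scaling to the median, 5 with quantile normalization and 1 with normexp and quantile normalization. *COL1A1*, the main chain of fibrillar collagen, was at -2.20 with siGRB2, -3.41 with miR-376c, -2.79 with siControl and -2.40 with miControl, a difference of 1.22, or 0.48 under the last of these settings. *COL5A2* was at -0.38 and -1.41, a difference of 1.03. *COL7A1*, which anchors the basement membrane to the tissue below, was at 0.27 and -0.73, with siControl near 0 and miControl at -0.10, a difference of 2.01-fold. In all 3 collagens the miR-376c array was the lowest of the 4, and for *COL7A1* the controls lay nearer to the siGRB2 array. *PXDN*, a peroxidase that links collagen IV chains, was not a member of this list. On its brighter probe it was at -0.71 with siGRB2, -1.74 with miR-376c, -0.18 with siControl and -0.90 with miControl. Its median difference was 1.06 over 2 probes. Here too the miR-376c array stood below the other 3. The lowest gene of the list was *LOXL4*, a collagen cross-linking oxidase, at -0.50.

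*SERPINB9*, an inhibitor of granzyme B, was the highest of 19 plasminogen activators and serpins. It was at 0.69 with siGRB2 and -0.60 with miR-376c, with both controls near 0.4, a difference of 1.29. The protease inhibitor *TFPI2* was the lowest at -0.86. In the TGF-beta, activin and BMP list, 3 of 33 genes were at least 1.5-fold higher and 1 was lower, and the median, 0.25, was the highest of the 46 lists on this scale. With quantile normalization, with or without normexp, the lysosome and autophagy list was the highest. *SMAD6*, an inhibitory SMAD, stood at 0.88, and *ID1*, a BMP target, was at 0.71 with siGRB2 and 1.49 with miR-376c, a difference of -0.78. Both genes respond to BMP signals, and they stood at opposite ends of the list.

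The lists of proliferation had medians below that of all genes, with few members past 1.5-fold. Of 41 measured genes of DNA replication and nucleotide synthesis, 37 were below the median of all genes. Their median was -0.18, the lowest of the 46 lists on this scale, while 0 genes were at least 1.5-fold higher and 1 was lower. With quantile normalization, with or without normexp, the cell cycle list was the lowest, except where the 7 spots of very high local background were left out. *RFC3*, a subunit of the clamp loader, was at -1.67 with siGRB2 and -1.08 with miR-376c on 1 probe and at -2.66 and -1.81 on the other, with a median difference of -0.72. *PCNA*, the sliding clamp itself, was at 2.76 and 3.19, with 3.45 for siControl and 2.66 for miControl, and its median difference over 2 probes was -0.47. The control arrays were further apart for *PCNA* than the 2 treatments were. *CDT1*, a licensing factor, was the highest of the list at 0.23.

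Of 43 measured genes of cell cycle and mitosis, 34 were below the median of all genes, 1 was at least 1.5-fold higher and 1 lower, with a median of -0.17. *CENPE*, a kinesin of the kinetochore printed as 10 spots, was at 0.94 with siGRB2, 1.54 with miR-376c, 1.48 with siControl and 1.27 with miControl. Its difference was -0.59 with an SD between spots of 0.03 on each array. *CDKN2B*, an inhibitor of the cyclin D kinases and so a brake on the cycle, stood at the other end at 0.73, from -1.12 and -1.85. In the DNA repair genes whose symbol begins with RAD, 14 of 17 were below the median of all genes and the family median was -0.19, with *RAD17* the lowest at -0.88. These groups are bright, 88.4% of the cell cycle list and 80.5% of the replication list being in the brighter part of all genes when divided at the median level, where the median difference was 0.03 or less. With quantile normalization and the other alternatives run, the replication list lay 0.14 to 0.24 and the cell cycle list 0.15 to 0.23 below the median of all genes.

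The sequence before the start of *RFC3* is shown since it is the lowest gene of the replication list and holds a motif of E2F, the factor family known for driving replication genes. It covers the 250 bases before the RefSeq start (GRCh38.p14, chr13:33817899-33818148, plus strand), with the match in capitals.
RFC3: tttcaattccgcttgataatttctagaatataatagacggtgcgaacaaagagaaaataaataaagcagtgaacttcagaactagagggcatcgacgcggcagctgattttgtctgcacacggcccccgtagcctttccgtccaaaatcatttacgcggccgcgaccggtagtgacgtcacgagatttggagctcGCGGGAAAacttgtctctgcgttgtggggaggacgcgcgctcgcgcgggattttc
The match, found 55 to 48 bases before the start, is TTTCCCGC read on the other strand. Searched on both strands with a second form, TTTGGCGC, an E2F motif was in 11 of the 34 replication genes with a sequence (32.4%), in 4 of 34 cell cycle genes (11.8%) in 1.96% of all 27305 promoters of this length and in 3.0% of those of the 11095 measured genes with a sequence. The motif TTTGAA of the cell cycle homology region was in 29.4% of the cell cycle genes, 2.94% of the replication genes, 13.6% of all promoters and 8.85% of those of measured genes. CCAAT on either strand was in 58.8% and 55.9% of the 2 lists, in 33.0% of all promoters and in 35.2% of those of measured genes. A match is a description of these letters and not a site.

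Lists of protein turnover and RNA processing also had medians below that of all genes. Of 45 proteasome subunits, 38 were below the median of all genes, with a median of -0.13 and 0 genes past 1.5-fold in either direction. The family of PSMB symbols, which encode the beta ring with the active sites, had 10 of 10 below that median. *PSMB9*, a subunit of the immunoproteasome, was the lowest at -0.47, from 2.58 with siGRB2 and 3.05 with miR-376c, and *PSME3*, a regulator cap, the highest at 0.42. Splicing factors had 27 of 36 below the median of all genes and a list median of -0.09, from *HNRNPDL* at -0.37 to *QKI* at 0.46. Mitochondrial ribosomal proteins had 61 of 76 below it, with a list median of -0.04. Cytosolic ribosomal proteins had 68 of 86 below it, within a narrow band, with a median of 0.01 and 0 genes past 1.5-fold. With quantile normalization these counts were 55 and 48. Of the mitochondrial, cytosolic and proteasome lists, 96.1%, 97.7% and 91.1% of genes were in the brighter part of all genes. There the median difference was 0.03 or less. Genes that process or use microRNAs had 0 of 28 past 1.5-fold, from *DCP2*, which removes the cap of messengers, at -0.27 to *EDC4*, its partner, at 0.42.

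The list of glycolysis and the response to low oxygen lay on the other side. Of 35 genes measured, 23 were above the median of all genes, 4 were at least 1.5-fold higher and 0 were lower, and the median was 0.22. With normexp and quantile normalization 1 gene, *CA9*, was higher. *CA9*, the carbonic anhydrase that serves as a marker of hypoxia, was at -1.70 with siGRB2, -3.23 with miR-376c, -2.35 with siControl and -2.48 with miControl. The controls lay between the 2 treatments, and the difference was 1.53 (2.89-fold), or 0.69 under that setting. *EGLN3*, an oxygen sensor induced by HIF, was at -3.08 and -3.97, a difference of 0.89. *SLC2A3*, a glucose transporter, was 0.85 over 2 probes. *KDM3A* and *HK2*, also known as HIF targets, were at -0.46 and -0.33, on the other side of 0. Of the list, 88.6% of genes were in the brighter part of all genes.

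The 250 bases before the start of *CA9* (GRCh38.p14, chr9:35673678-35673927, plus strand) are shown because they hold the core of the hypoxia response element near the start, with this core, a CCAAT box and an AP-1 motif in capitals.
CA9: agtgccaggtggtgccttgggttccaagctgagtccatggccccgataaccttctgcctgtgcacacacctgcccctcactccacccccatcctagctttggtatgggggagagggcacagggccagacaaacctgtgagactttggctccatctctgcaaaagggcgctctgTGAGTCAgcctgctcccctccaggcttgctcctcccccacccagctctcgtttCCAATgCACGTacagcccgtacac
The core, ACGTG read on the other strand, was 18 to 14 bases before the start. It was in 14 of the 31 genes of the list with a sequence (45.2%), in 18.7% of all promoters, in 22.8% of those of measured genes and, for comparison, in 45.2% of the splicing factors, whose median had the opposite sign.

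Inflammatory genes were split. In the list of NF-kB and cytokines, 2 of 36 genes were at least 1.5-fold higher and 3 lower, with a median of 0.02. The lower genes encode secreted products, but so does *IL32*, 1 of the 2 higher genes, at 0.67 over 2 probes. *SAA1*, an acute-phase protein, was at 3.75 with siGRB2, 4.54 with miR-376c, 4.02 with siControl and 4.37 with miControl, a difference of -0.80. Its neighbour *SAA2* gave -0.79 over 2 probes, though the transcripts are nearly identical and may share signal. *IL6*, printed as 10 spots, was at -1.07, -0.38, -1.10 and -0.93 on the same arrays, a difference of -0.69, and the miR-376c array stood above the other 3. *IKBKE*, a kinase of the interferon and NF-kB pathways, was the highest at 0.74.

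Of 17 chemokines and receptors, *CXCL3*, *CCL20* and *CXCL2* were the lowest. *CXCL3*, which draws neutrophils, was at -4.89 with siGRB2 and -3.87 with miR-376c, a difference of -1.02 in a dim probe. *CXCL3* and *CCL20*, at -0.61, passed 1.5-fold, and 0 genes were higher by that much. *CCL2* was the highest at 0.51.

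In the interleukin-1 family, 2 of 21 genes were at least 1.5-fold higher, *IL1RAP* and *IL37* (0.76), and 2 were lower, *IL1RL1* and *IL1RN*. *IL1RAP*, the shared receptor subunit that the IL-1 receptor needs to signal, was at 0.83 with siGRB2 and -0.10 with miR-376c on its brighter probe, with 0.95 for siControl and 0.67 for miControl. Its median was 0.81 over 2 probes, and the miR-376c array was the lowest of the 4. *IL1RN*, the receptor antagonist, was at 3.08 with siGRB2, 3.78 with miR-376c, 3.92 with siControl and 3.85 with miControl on its brighter probe. Its median was -0.66 over 2 probes, and here the siGRB2 array stood apart from 3 close values on that probe. *IL1RL1*, the receptor of interleukin-33, was the lowest at -0.99 in a dim probe.

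The interferon list had 2 of 42 genes higher and 2 lower. *TRIM22*, an interferon-induced antiviral protein, was at -1.96 with siGRB2, -3.0 with miR-376c, -3.95 with siControl and -4.32 with miControl, a difference of 1.05 (0.37 with normexp and quantile normalization) with both treatments above both controls. *SAMD9L* was the lowest at -0.71 over 2 probes. In antigen presentation, *HLA-DMA*, which loads peptides on class II molecules, was the highest of 18 at 0.75 and *PSMB9* the lowest.

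*MMP7*, matrilysin, a protease of epithelial cells, was past 2-fold in the lower direction. It was at 2.35 with siGRB2, 3.52 with miR-376c, 3.92 with siControl and 2.89 with miControl. The siGRB2 array was the lowest of the 4, the difference was -1.17 (2.25-fold), and over all alternatives other than the spike-in scale it stayed between -1.30 and -1.11. *MMP1*, a collagenase printed as 10 spots, was at -0.76 with siGRB2 and 0.04 with miR-376c, a difference of -0.80. The other 13 of the 15 metalloproteinases and inhibitors measured lay between -0.15 for *MMP17* and 0.60 for *MMP25*. *S100A9*, a subunit of the neutrophil protein calprotectin, was the lowest of 14 S100 genes at -1.25, from -5.11 and -3.86, and *S100A5* the highest at 0.84.

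The 250 bases before the start of *MMP7* (GRCh38.p14, chr11:102530748-102530997, minus strand) are shown because the difference of *MMP7* stayed past 2-fold under those settings and its start region holds both an AP-1 motif and a TATA box. The sequence is read in the direction of the gene. Capitals mark, in order, the cell cycle homology motif, a CCAAT box, the first motif again on the other strand, the AP-1 motif and the TATA box.
MMP7: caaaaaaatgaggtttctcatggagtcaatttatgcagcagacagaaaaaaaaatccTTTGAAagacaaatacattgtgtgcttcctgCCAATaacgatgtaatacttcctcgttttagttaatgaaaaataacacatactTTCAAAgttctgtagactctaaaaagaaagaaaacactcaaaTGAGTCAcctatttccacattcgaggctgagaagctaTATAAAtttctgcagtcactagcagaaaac
The AP-1 motif, searched as TGANTCA, lay 67 to 61 bases before the start and was in 6.60% of all promoters and 4.35% of those of measured genes. TATAAA in the direction of the gene lay 30 to 25 bases before the start and was in 7.17% and 4.56% of them.

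Over the 46 lists, 1387 of 1627 genes were measured, and 13 were at least 2-fold higher and 4 at least 2-fold lower. The 4 lower were *ASGR2*, *S100A9*, *MMP7* and *CXCL3*. With normexp and quantile normalization *MMP7* alone of the 4 stayed past 1.5-fold, the others lying between -0.45 and -0.35. *ASGR2*, a subunit of the hepatocyte asialoglycoprotein receptor, was at -5.46 with siGRB2 and -3.97 with miR-376c, a difference of -1.49 in a dim probe. It was the only lower gene past 1.5-fold of 24 of biliary and hepatocyte identity, where *CFTR*, the chloride channel of bile ducts, was the highest at 0.84. Among the 13 higher, besides those described, were *ZMAT3*, a p53 target, at 1.07, from -4.33 and -5.41 (0.23 with normexp and quantile normalization), and the histone *H4C16* at 2.21 from 1 dim probe.

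The remaining lists had few genes past 1.5-fold. Epithelial junctions had 1 gene higher, *JUP* (plakoglobin), at 0.61, from 4.51 with siGRB2 and 3.90 with miR-376c, and 3 lower, of which the gap junction gene *GJA1* was the lowest at -0.77. The p53 list had *FAS*, a death receptor, as its lowest gene at -0.70, with 3 probes at -0.70, -0.69 and -0.76, beside *ZMAT3*. Lysosome and autophagy had 3 of 37 genes higher and a median of 0.20, and the highest was *WIPI1*, a protein of early autophagosomes, at 0.83. Other receptor tyrosine kinases had 1 of 22 higher, *EPHB6*, an ephrin receptor without kinase activity, at 0.98, from -0.50 with siGRB2 against -1.48, -1.69 and -1.37 with miR-376c, siControl and miControl, and *MERTK* was the lowest at -0.25. Wnt and Notch had *NOTCH3* at 0.69 as the highest of 28 and *LGR4* at -0.49 as the lowest.

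Few genes of metabolic and stress lists passed 1.5-fold. The median of the ATF4 targets was -0.04, against 0.06 for all genes. The unfolded protein response ran from *DDIT3* at -0.61 to *ERO1A* at 0.36, targets of ATF4 from *MTHFD2* at -0.65 to *WARS1* at 0.39, and NRF2 targets from *ME1* at -0.59 to *HMOX1* at 0.83. Cholesterol and fatty acid synthesis ran from *MYLIP* at -0.44 to *ABCA1* at 0.57, respiratory chain subunits from *ATP5MC1* at -0.33 to *COX4I2* at 0.77, and metallothioneins from *MT3* at -0.06 to *MT1F* at 0.44. The lowest histone gene was *H1-1* at -0.54, HOX genes ran from *HOXB8* at -0.47 to *HOXA6* at 0.51, and mucins from *MUC2* at 0.00 to *MUC1* at 0.75. Of 48 measured genes whose proteins the study listed from its proteome experiment with Pre-miR-376c, 2 were at least 1.5-fold higher, led by *CAPNS1* at 0.66, and 2 were lower, *GRB2* and *CKAP4* at -0.59, with a median of 0.05.

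Grouped only by the letters of their symbols, 182 families had at least 10 genes measured. The highest medians were those of SNORA (small nucleolar RNAs, 0.37 over 10 genes), SEMA (semaphorins, guidance molecules, 0.36 over 14), COL (collagens, 0.31 over 28), SCARNA (small Cajal body RNAs, 0.30 over 12) and CLDN (claudins of tight junctions, 0.28 over 13). Of the semaphorins, 13 of 14 were above the median of all genes, with *SEMA7A* the highest at 0.89, and of the collagens 20 of 28 were above it and 5 at least 1.5-fold higher. The lowest medians were those of ZCCHC (-0.21 over 10), RAD (-0.19 over 17), PSMB (-0.17 over 10), SP (-0.14 over 13) and RGS (-0.13 over 10). Small nucleolar and Cajal body RNAs lack the long tail that the labelling primer needs, and what their probes took up was not tested.

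The largest differences of single genes were in dim probes with a few exceptions. *SUSD2*, a membrane protein with a sushi domain, was at 3.68 with siGRB2, 1.78 with miR-376c, 1.89 with siControl and 2.18 with miControl on its bright probe. The other 3 arrays lay close together and the siGRB2 array stood 1.90 above the miR-376c array. The dim probe of *SUSD2* gave 2.36, and the gene value was 2.13, or 1.19 with normexp and quantile normalization. *MAP1B*, a microtubule-associated protein, was at -1.25 and -2.51 on its brighter probe and 1.13 higher over 2 probes.

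Besides *SUSD2* and the keratins, the 15 highest named probes were those of *DIPK1A* (3.29, the highest with a gene name), *PADI2* (3.0), *COLEC10* (3.0), *GRIP2* (2.93), *LOC148696* (2.66), *KIF21B* (2.60), *LRRN3* (2.43), *STAG3* (2.38), *WDR31* (2.30), *TCF23* (2.21) and *H4C16*. *PADI2*, which turns arginine in proteins to citrulline, was at -1.82 with siGRB2 against -4.82, -5.08 and -4.77 with miR-376c, siControl and miControl. *DIPK1A* was at -2.98 against -6.27, -5.89 and -6.18. In both the siGRB2 array stood alone, whereas *TCF23* and *H4C16* were also high with siControl, at -3.89 and -4.24. Other probes of these genes did not follow. The second probe of *DIPK1A* gave 0.22, of *KIF21B* 0.20 and of *STAG3* -0.091.

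The lowest named probes were *PGLYRP2* (-3.02), *LINC00029* (-2.60), *ATOH8* (-2.41), *LINC00656* (-2.34), *HYDIN* (-2.27), *LILRA4* (-2.22), *WNT1* (-2.14), *CAPN13* (-2.10), *RNF6* (-2.04), *CBLN2* (-1.96), *SLC1A4* (-1.95), *PTP4A3* (-1.85), *CERS4* (-1.84), *NEURL1B* (-1.68) and *TRIM46* (-1.63). *PGLYRP2*, an enzyme that cuts bacterial cell wall, was at -3.21 with miR-376c against -6.23, -5.07 and -5.92 with siGRB2, siControl and miControl. *ATOH8*, a transcription factor, was at -3.48 against -5.89, -6.20 and -6.41. The miR-376c array stood alone in both. Another probe of *RNF6* gave -0.08 and of *NEURL1B* 0.92. Over the 30 genes at both ends, 24 had 1 probe measured on both arrays, 6 had another, and the other probe passed 1.5-fold in the same direction in 1, *SUSD2*.

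Some probes were well above background on 1 array only, 920 with siGRB2 and 436 with miR-376c, while 10666 were above it on neither. Set against the higher of the dim probe's own signal and the lowest signal well above background, 224 of the 920 and 158 of the 436 differed by at least 2-fold. The highest named bounds for siGRB2 were *TSGA10IP* (at least 57.8-fold higher), *DAPL1* (22.9), *CD248* (21.5), *PGR* (16.2) and *BCL2A1* (15.6). The highest for miR-376c were *CDH19* (with siGRB2 at least 18.6-fold lower), *TGM4* (17.5), *ZNF354C* (17.3), *DRD5* (14.3) and *ZIC5* (13.6). *PGR* encodes the progesterone receptor and *DRD5* a dopamine receptor. Each is a single probe.

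The cells carried the markers of bile duct epithelium on both arrays. All 8 biliary markers were measured, the lowest difference being -0.32 for *EPCAM*, with *KRT7*, *KRT18* and *KRT19* at levels above 6. Of 8 hepatocyte markers 2 were measured on both arrays, and *ALB*, *TTR*, *TF* and *FGB* were not well above background on any array. Of 6 fibroblast markers *COL1A1* and *LUM* (-0.18) were measured while *COL1A2*, *COL3A1*, *PDGFRB* and *DCN* were not well above background, so the higher *COL1A1* stood without its partner chain. Of 6 endothelial markers *VWF* and *CDH5* were measured, at 0.64 and 0.07, and of the leukocyte markers *CD68* was the highest at 0.44 and *PTPRC* was at -4.86 and -5.00 on its brightest probe. *GAPDH* was at 7.34 with siGRB2 and 7.22 with miR-376c, a difference of 0.13.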

How the data were processed

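Per the labels, total RNA was labelled with 1 dye and hybridized to a human 44 K design, 1 array per transfection. The authors deposited the spot intensities of Agilent Feature Extraction (10.7) with quality flags, in which background had been subtracted, and a table of log2 values shifted to the 75th percentile. The design was annotated on another build, so RefSeq (GRCh38.p14) gave names only, for 25422 of 34127 probes (74.5%), and sequences.

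From the processed intensity, spots with an outlier flag (312 with siGRB2, 329 with miR-376c) were left out, log2 values were scaled to the 75th percentile of non-control spots (1995 and 2065) and spots of a probe were averaged. No spot was saturated. A probe was measured where more than 0.5 of its spots carried the flag for signal well above background, and a gene took the median over its probes. Precision is limited by 1 array a side, and no test was made. Named were GRB2, EGFR, JUN, FOS, IL1B, MMP9, the network genes, GAPDH and ACTB, list genes past 2-fold, otherwise the highest and lowest of a list, the 15 highest and 15 lowest named probes, genes with all of at least 2 probes past 2-fold, the 5 highest bounds each way and the 5 highest and 5 lowest symbol families of at least 10 genes. Other genes named were chosen after their values were seen. Members, lists and rules were chosen with earlier results of these data known. Alternatives covered scaling, background (normexp, offset 50, then quantile normalization), the deposited log2 values, flags, detection, fold limits and the value per gene. Python (3.11.15), numpy (2.4.6), pandas (2.3.3), matplotlib (3.10.9), R (4.3.3) and limma (3.58.1) were used, and the calling step was tested on simulated data. Some members that the rule would name are not reported here.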

Additional observations from a re-analysis of the deposited data

How the results depend on the processing

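No paired analysis was possible because only 1 array was made per condition, and no replicate could be left out. The count of probes past 2-fold (198 higher and 99 lower) became 127 and 141 with scaling to the median, 128 and 136 with quantile normalization, 10 and 7 with normexp and quantile normalization, 37 and 17 over probes above the median signal of each array, 53 and 30 at a 3-fold limit and 1035 and 444 at 1.5-fold. Genes past 1.5-fold (626 and 258) became 355 and 542, 422 and 406, 62 and 32, and 320 and 145 under the first 4 of these. With the deposited log2 values they were 514 and 307. The next 2 alternatives were added after seeing the data. Normexp and quantile normalization without 7 spots of very high local background on the siGRB2 array gave 56 and 32 probes and 256 and 176 genes, and scaling to spike-in probes gave 55 and 932 probes and 62 and 5057 genes. Of the probes past 2-fold, 226 stayed past it with scaling to the median and 227 with quantile normalization. *STAG3* turned to -0.0906 with the brightest probe and with probes above the median signal. Several values short of 1.5-fold changed sign. Among them, *NEURL1B* turned from -0.38 to 0.92 with probes above the median signal and *GATA4* from 0.17 to -0.03 with the brightest probe. Values near 0 did so too, such as *JUN*, from 0.07 to -0.06 with scaling to the median, and *ACTB*, from -0.14 to 0.04 with the brightest probe. Of 46 lists, 37 kept their side of the median of all genes under the 13 alternatives run for lists, and the 9 that changed side lay within 0.09 of it. Counts with flagged spots kept and with the other rules on spots above background moved by less than 1.5 times. Quantile normalization alone kept 128 and 136 probes past 2-fold. Leaving out those 7 spots raised the count with normexp and quantile normalization from 10 and 7 to 56 and 32. Normexp was not run without the quantile step or with another offset, so why the count stayed below 128 and 136 was not tested.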
